A study of Mus musculus with 6 samples.

Results

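Hedgehog and BMP signalling was followed through 10 genes in the corpus (body) of the mouse stomach: Shh, Ihh, Ptch1, Gli1, Hhip, Bmp2, Bmp4, Bmp7, Grem1 and Id1. They were taken by name from a table of 18988 gene rows, and all 10 were present. The mice were of a C57BL/6 background, and each library held the total RNA of 1 animal. The genotype of interest was PGC;Ras;APC FF (3 mice, replicates 4 to 6, also written as mice with PGC), and the controls were Ras;APC FF (3 mice, replicates 1 to 3), so that the Ras and APC FF alleles were shared and the PGC component was not. PGC, Ras and FF are not spelled out in the labels, and the allele of Ras, the driver and cell type of any recombinase, the age and the time after any induction were not given there. The comparison asks what the PGC component, on top of alleles that both genotypes hold, goes with in the pathway genes of the corpus.

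Hedgehog ligands bind the receptor Ptch1, which frees Smoothened (Smo) and lets the Gli transcription factors act. Ptch1, Gli1 and the decoy receptor Hhip are themselves targets and serve as readouts of the pathway. In the stomach Shh comes largely from parietal and other gland cells and Ihh from the surface epithelium, while the responding cells lie mainly in the mesenchyme. BMP ligands signal through serine/threonine kinase receptors to SMAD1, SMAD5 and SMAD9, which with SMAD4 switch on targets such as the Id genes. Secreted antagonists such as Gremlin 1 (Grem1) bind the ligands outside the cell.

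The values were FPKM (fragment numbers divided by gene length and by library size), computed by the authors and summing to between 664821 and 804774 per library. The number of fragments behind them is unknown: among low values of short single-exon RNAs, at most 30.0% to 42.9% in 5 libraries and 3 of 6 values in the other fell on whole multiples of any single step (within 0.03 reads beyond rounding). Replicate 6 stood apart, with log2 values that correlated across genes with the controls at 0.904 to 0.909, against 0.965 to 0.981 for replicates 4 and 5. Genes are not independent replicates, so these r carry no p. Pgc, Clps and Pla2g1b together held 32.7%, 31.7% and 6.36% of summed FPKM in replicates 4 to 6 and 48.1%, 43.9% and 34.9% in replicates 1 to 3. Control replicate 3 carried the Y-linked transcripts Ddx3y (6.09 FPKM) and Eif2s3y (13.15 FPKM) with Xist listed at 0, unlike the other libraries, and the model holds no term for sex. Apc was at 2.80, 2.38 and 4.03 FPKM in PGC;Ras;APC FF and at 2.24, 2.75 and 2.17 FPKM in controls, and a gene-level value does not separate alleles, so the genotypes were not checked by it. The tissue label was borne out by high Atp4b, the proton pump subunit of parietal cells, at 723.3 to 3849 FPKM in mice with PGC and 4068 to 4614 FPKM in controls. The 5 exocrine pancreas genes summed to 1.26 to 2.54 FPKM in mice with PGC and 1.94 to 2.76 FPKM in controls, with Cpa1 and Prss2 at or under 0.04 FPKM and Pnlip, the highest, at up to 1.46 FPKM.

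The stretches of DNA before the annotated start of a Hedgehog ligand (Ihh), of both Hedgehog feedback genes with an entry (Ptch1 and Hhip) and of Bmp4 are shown because these genes make up the chain from signal to response whose levels follow. Promoter entries matched 5 of the 10 members (also Grem1). The 250 bases before the RefSeq start are printed 5′ to 3′ on the gene's own strand, from RefSeq on GRCm38.p6, with GC boxes (GGGCGG, either strand) in capitals. All 4 lie on the minus strand. The RefSeq start of Ptch1 used here lies 7863 bases inside the gene's GENCODE span given below, so its stretch precedes an internal start, whereas the other 3 stretches end within 2 bases of the span of their gene.
Ihh, chr1:74951673-74951922: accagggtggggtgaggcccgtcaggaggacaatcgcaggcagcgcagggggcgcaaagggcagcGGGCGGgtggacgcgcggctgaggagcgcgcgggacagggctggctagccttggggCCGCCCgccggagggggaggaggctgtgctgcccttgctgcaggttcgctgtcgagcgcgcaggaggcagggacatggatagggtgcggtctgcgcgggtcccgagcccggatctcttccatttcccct
Ptch1, chr13:63565736-63565985: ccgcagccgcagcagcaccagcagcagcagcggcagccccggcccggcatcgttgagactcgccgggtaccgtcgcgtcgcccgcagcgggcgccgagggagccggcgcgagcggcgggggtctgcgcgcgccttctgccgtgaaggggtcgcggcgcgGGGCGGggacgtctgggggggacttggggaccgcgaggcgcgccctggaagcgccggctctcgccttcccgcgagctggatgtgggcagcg
Hhip, chr8:80058009-80058258: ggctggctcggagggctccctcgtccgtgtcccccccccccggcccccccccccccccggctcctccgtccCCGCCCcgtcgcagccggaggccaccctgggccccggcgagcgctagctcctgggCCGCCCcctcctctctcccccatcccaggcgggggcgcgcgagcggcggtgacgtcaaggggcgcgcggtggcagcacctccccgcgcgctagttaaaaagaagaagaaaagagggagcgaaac
Bmp4, chr14:46390670-46390919: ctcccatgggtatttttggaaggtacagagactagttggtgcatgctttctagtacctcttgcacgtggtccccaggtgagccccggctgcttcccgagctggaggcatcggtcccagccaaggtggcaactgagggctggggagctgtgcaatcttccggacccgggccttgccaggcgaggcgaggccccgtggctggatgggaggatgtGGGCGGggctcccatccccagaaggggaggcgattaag
The 4 stretches held 2, 1, 2 and 1 GC boxes in the order shown, and 32.7% of all 32817 such stretches held at least 1. The GLI consensus GACCACCCA, searched on both strands, was in none of the 5 members' stretches and in 0.225% of all stretches, so these letters are simply not in these windows. The GC motif GGCGCC, which SMAD proteins can bind, occurred once each in the Ptch1 and Grem1 stretches and in 9.59% of all. No match was used to choose or rank a gene.

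Of the 10 members 9 passed the filter (at least 1 FPKM in at least 3 of 6 libraries), and Gli1, with 2 libraries above 1 FPKM, did not. Differences were tested as log2(FPKM + 1) with limma across 11857 genes, with Benjamini-Hochberg adjusted p under 0.05 as the threshold. Of the 9 members 0 passed, where 0.152% of all tested genes did (0.11% higher and 0.0422% lower). At an unadjusted limma p under 0.05, 4 of 9 members were higher in PGC;Ras;APC FF (Ihh, Bmp4, Bmp7 and Id1) and 0 lower, against 35.4% of all tested genes (31.8% higher and 3.63% lower). The groups were fully separated upward, each library with PGC above each control, in 4 of 9 members (Shh, Ihh, Bmp4 and Bmp7), a share of 44.4% beside 42.7% of all tested genes, so this separation is near the background. After median-of-ratios scaling 1 member of 9 was separated upward (Bmp7) and 1 downward (Bmp2), where 18.1% of all tested genes were separated upward and 16.7% downward. The median log2 change was 0.26 over the 9 members and 0.26 over all tested genes. Scaling moved that overall median to -0.0027, so each change below is best read against 0.26.

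**Figure D1:**
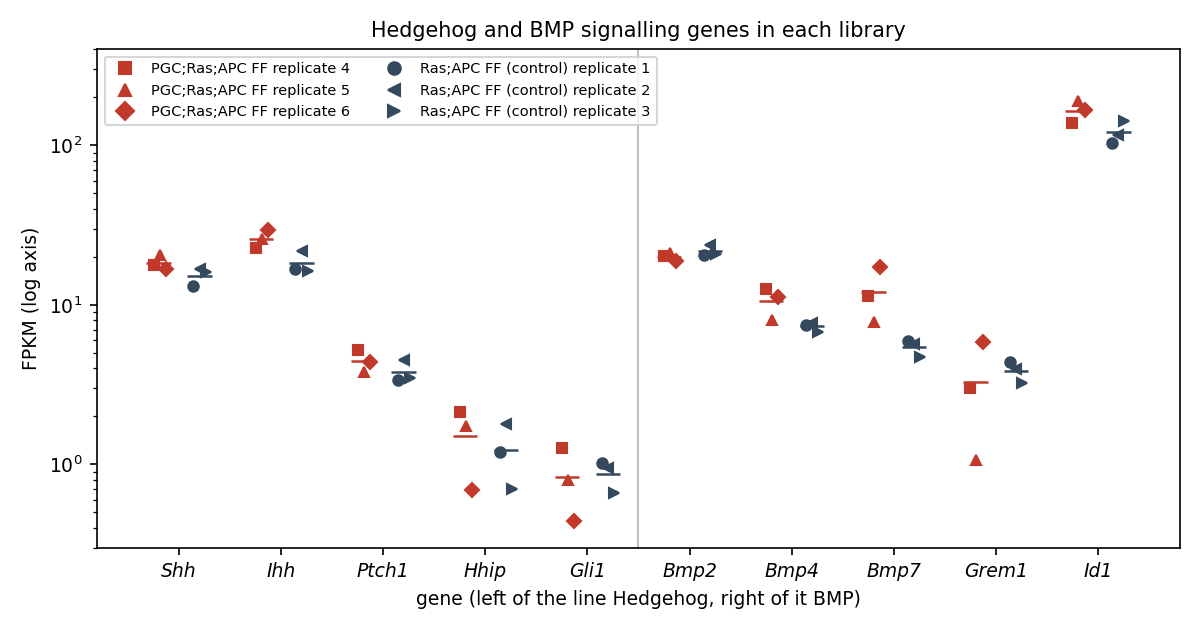
FPKM (log axis) of the 10 genes in each library, with PGC;Ras;APC FF (red) left of the Ras;APC FF controls (dark) for each gene; points are single mice and short lines group means. Bmp7 shows the widest gap between the groups (7.83 to 17.19 FPKM in mice with PGC against 4.71 to 5.94 FPKM in controls), while Ptch1, Hhip, Gli1, Bmp2, Grem1 and Id1 overlap.

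Both Hedgehog ligands were expressed at similar levels and stood slightly higher in PGC;Ras;APC FF on the FPKM scale. Ihh (chromosome 1, 74945315 to 74951672, minus strand), the ligand of the surface epithelium, was at 22.88, 25.71 and 29.54 FPKM in mice with PGC and at 16.78, 21.61 and 16.33 FPKM in controls. Replicate 6 was the highest library and the groups did not overlap, though replicate 4 exceeded control replicate 2 by little. The log2 difference was 0.49 ± 0.16 (SE, limma adjusted p = 0.0959), and 0.20 after median-of-ratios scaling. Shh (chromosome 5, 28456815 to 28467256, minus strand) was at 17.77, 20.58 and 16.85 FPKM in mice with PGC and at 13.04, 16.74 and 15.98 FPKM in controls. Its lowest library with PGC, replicate 6, lay just above the highest control. The difference of 0.26 ± 0.15 (SE, limma adjusted p = 0.225) was close to the shift of all genes, and it was -0.034 after median-of-ratios scaling. Exons of 2 non-coding genes overlap those of Shh on the other strand (446 and 361 bases of 2847), and whether the counting used strand was not given, so reads of these genes and of Shh cannot be told apart. The same holds for shorter antisense overlaps at Gli1 (62 and 265 bases), Hhip (175) and Bmp4 (89), and for longer ones at Gas1 (589) and Bmp5 (1878) among the genes named further on. The ratio of Ihh to Shh within a library was 1.29, 1.25 and 1.75 in mice with PGC and 1.29, 1.29 and 1.02 in controls, and the groups overlapped. This ratio and those below were chosen after the values were seen and carry no test.

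General epithelial and parietal cell markers differed beside the ligands, while surface pit cell markers overlapped. The 4 pit genes (Muc5ac, Tff1, Gkn1 and Gkn2) summed to 103600 to 107900 FPKM in mice with PGC. In controls they summed to 72980 to 143600 FPKM, and 0 of the 4 were separated in either direction. The 5 general epithelial genes (Epcam, Cdh1, Krt8, Krt18 and Krt19) summed to 4128 to 6254 FPKM in PGC;Ras;APC FF and to 2425 to 2821 FPKM in controls. Of these, 5 of 5 were separated upward, beside 42.7% of all tested genes, and 0 passed the threshold. The ratio of Ihh to Cdh1, the epithelial cadherin, was 0.112, 0.122 and 0.116 in mice with PGC and 0.124, 0.129 and 0.124 in controls. Relative to Cdh1, Ihh was thus lower in every library with PGC. Gkn1, a surface pit gene, averaged 17720 ± 858 FPKM in mice with PGC and 18880 ± 5240 FPKM in controls (SD, n = 3 each). The direction of such a ratio thus depends on the epithelial gene chosen. The ratio of Shh to Cdh1 was 0.0870, 0.0976 and 0.0663 in mice with PGC and 0.0963, 0.1003 and 0.121 in controls, and the groups overlapped. The 7 parietal cell genes summed to 5038, 6370 and 1201 FPKM in replicates 4 to 6 and to 6620 to 7606 FPKM in controls. In replicate 6 the mean log2 level of these 7 genes was 1.92 lower than the control mean (a value of -1.92). Shh in that library was at 16.85 FPKM, just above every control, but after median-of-ratios scaling it was at 12.9, below the controls at 15.0, 18.2 and 17.5. In bulk tissue, fewer cells of a type and less RNA per cell cannot be told apart, and the part of these cell markers in the ligand levels was not tested.

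The Hedgehog readouts were low and overlapped between the genotypes. Ptch1 (chromosome 13, 63508328 to 63573598, minus strand), the receptor and feedback inhibitor, was at 5.19, 3.80 and 4.40 FPKM in PGC;Ras;APC FF and at 3.38, 4.52 and 3.50 FPKM in controls. The groups overlapped, and the log2 difference of 0.19 had a 95% interval of -0.18 to 0.55 (limma adjusted p = 0.385), with -0.061 after median-of-ratios scaling. Hhip (chromosome 8, 79965851 to 80058006, minus strand), which binds and holds back the ligands, was at 2.12, 1.74 and 0.69 FPKM in mice with PGC and at 1.19, 1.78 and 0.70 FPKM in controls. Each group thus held 1 library near 0.7 FPKM, and the log2 difference of 0.16 (95% interval -0.46 to 0.78, limma adjusted p = 0.664) was 0.42 without replicate 6, -0.019 without control replicate 3 and -0.018 without replicate 4. Gli1 (chromosome 10, 127329882 to 127341974, minus strand), the activator whose transcript most directly reports the pathway, was at 1.26, 0.80 and 0.44 FPKM in mice with PGC and at 1.02, 0.95 and 0.66 FPKM in controls. Replicates 4 and 6 were its highest and lowest libraries of all 6, and an exact two-sided permutation test over the 20 splits gave p = 0.9 (the smallest possible with 3 against 3 is 0.1). The ratio of Gli1 to Pdgfra, a receptor of fibroblasts, was 0.147, 0.148 and 0.0484 in mice with PGC and 0.210, 0.187 and 0.160 in controls, so it was lower in all 3 libraries with PGC. For the other readouts the same ratio overlapped. Ptch1 to Pdgfra was 0.605, 0.705 and 0.484 in mice with PGC and 0.696, 0.888 and 0.848 in controls. Hhip to Pdgfra was 0.247, 0.323 and 0.0758 in mice with PGC and 0.245, 0.350 and 0.170 in controls. Pdgfra itself was at 8.58, 5.39 and 9.10 FPKM in mice with PGC against 4.86, 5.09 and 4.13 FPKM in controls, and the 6 fibroblast genes summed to 257.5 to 397.4 FPKM in mice with PGC and 250.3 to 261.9 FPKM in controls. Of these 6 genes 3 were separated upward (Col1a1, Col1a2 and Pdgfra), beside 42.7% of all tested genes, and Dcn, Lum and Col3a1 overlapped. Lum averaged 12.6 FPKM in mice with PGC and 14.7 FPKM in controls. The separation of Gli1 to Pdgfra thus depends on the choice of fibroblast gene. The part of fibroblast genes in the ratio was not tested.

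In the Hedgehog lists 0 of 4 tested ligands and release factors passed limma, 0 of 5 receptors, 0 of 4 Gli factors with their regulators and 0 of 4 mesenchymal targets. The median log2 differences were 0.46, 0.074, 0.076 and 0.081, beside 0.26 for all genes, and at an unadjusted limma p under 0.05 there were 3 genes in the first list (Ihh, Disp1 and Scube1), all higher, and 0 in the others, beside 31.8% of all tested genes higher and 3.63% lower. Disp1, which releases lipid-bearing ligand from cells, averaged 5.77 ± 0.83 FPKM in PGC;Ras;APC FF and 4.01 ± 0.26 in controls (SD, n = 3 each). Scube1, a secreted protein of a family that helps carry the ligand, averaged 4.49 ± 1.33 FPKM in mice with PGC and 2.71 ± 0.64 FPKM in controls. Disp1 was higher in every library with PGC, and Scube1 overlapped. Smo, the signal transducer that Ptch1 holds in check, averaged 7.58 ± 1.56 FPKM in mice with PGC and 6.20 ± 0.22 in controls. Gas1, a co-receptor, averaged 9.13 ± 2.63 FPKM in mice with PGC and 13.4 ± 6.99 in controls, where replicate 3 alone reached 21.37 FPKM. Sufu, which restrains Gli proteins, averaged 3.77 ± 1.24 FPKM in mice with PGC and 2.55 ± 0.23 in controls, and Spop, an adaptor for Gli degradation, averaged 33.98 ± 1.25 FPKM in mice with PGC and 31.7 ± 1.49 in controls. Sufu was higher in every library with PGC, and Smo, Gas1 and Spop overlapped. For Sufu, however, replicate 5 (2.86 FPKM) exceeded control replicate 2 (2.80 FPKM) by little. Upward separation as in Disp1 and Sufu was found for 42.7% of all tested genes. The mesenchymal transcription factors Foxf1 and Foxf2 averaged 6.97 ± 0.76 and 7.54 ± 1.94 FPKM in mice with PGC and 6.95 ± 0.50 and 8.34 ± 0.96 in controls. Gli2 and Gli3 stayed under 0.6 FPKM in all 6 libraries and were not tested. Foxl1, a factor of subepithelial mesenchymal cells that was also under the filter and was picked out after its values were seen, was at 1.15, 0.75 and 1.06 FPKM in mice with PGC and at 0.54, 0.47 and 0.57 FPKM in controls.

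**Figure D2:**
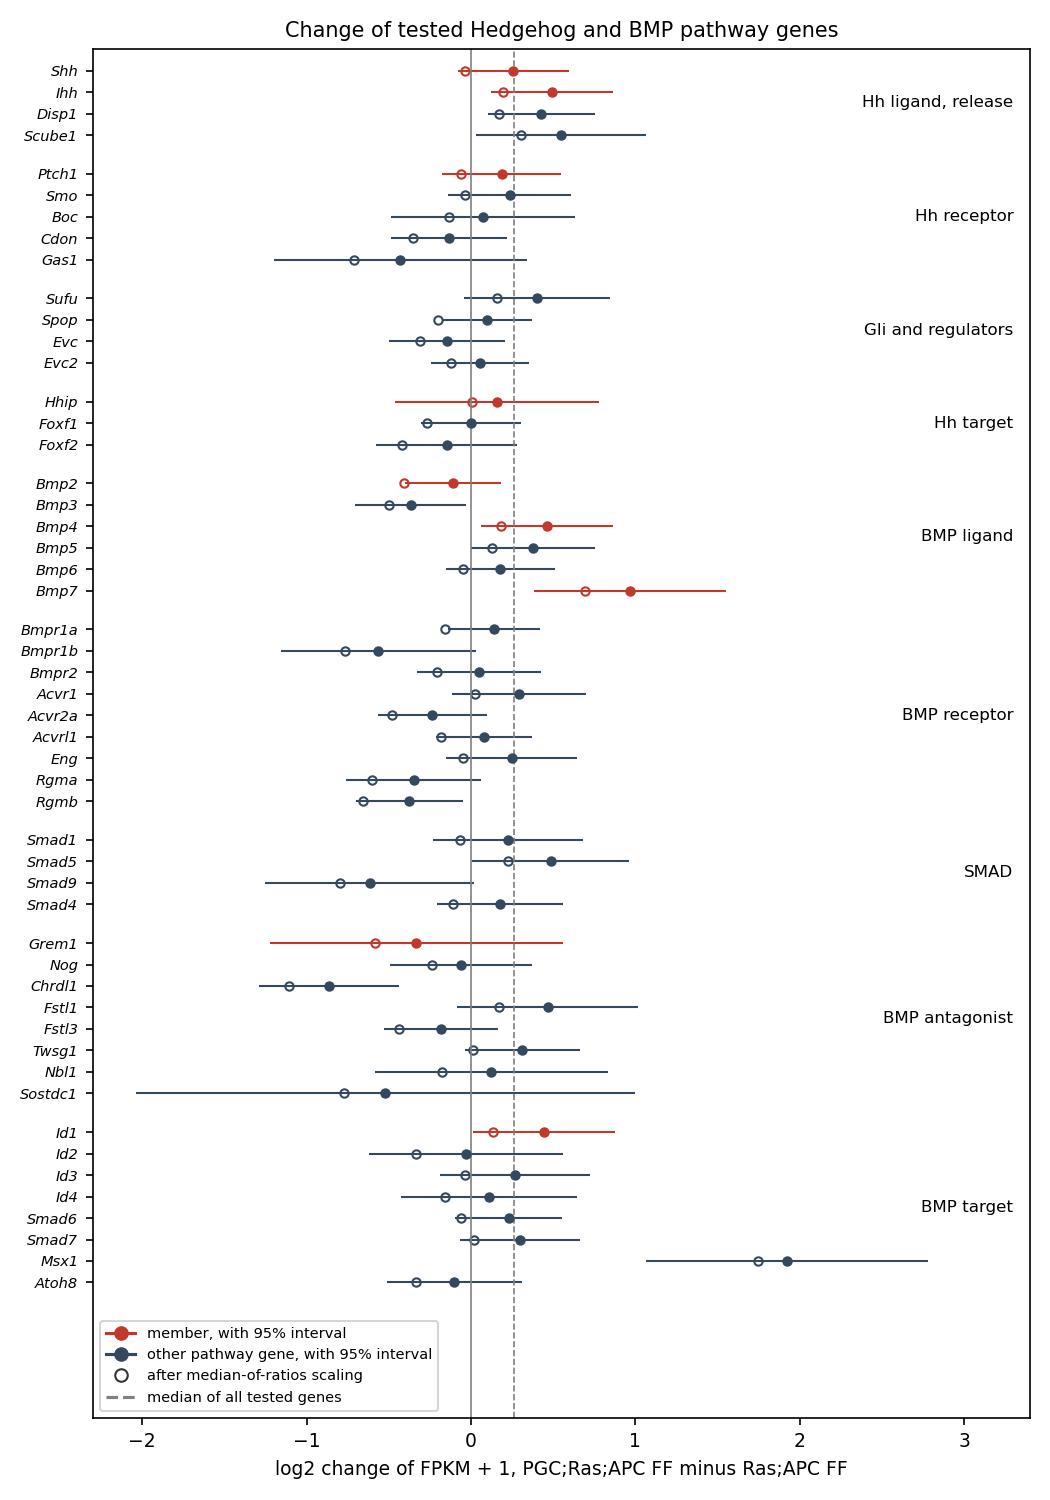
Log2 change of FPKM + 1, PGC;Ras;APC FF minus Ras;APC FF, for tested genes of the pathway lists, grouped by role; filled points carry the limma 95% interval, open points are the changes after median-of-ratios scaling, red marks the members and the dashed line the median of all tested genes (0.26). Most intervals span the dashed line. Those of Bmp7 (0.97) and Msx1 (1.92) lie wholly to its right, though Msx1 passed the filter only through the libraries with PGC. Wholly to its left lie those of the member Bmp2 (-0.11) and of Chrdl1 (-0.86), Bmp3, Rgma, Rgmb, Bmpr1b, Smad9, Acvr2a, Fstl3, Cdon and Evc. Bmp3 passed the filter only through the controls.

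Among BMP ligands Bmp7 was the member that differed most. Bmp7 (chromosome 2, 172868012 to 172940321, minus strand), a ligand made by many epithelia, was at 11.34, 7.83 and 17.19 FPKM in PGC;Ras;APC FF and at 5.94, 5.66 and 4.71 FPKM in controls. Every library with PGC exceeded every control, with replicate 6 the highest, and the ratio of the means was 2.23. The log2 difference was 0.97 ± 0.25 (SE), with a 95% interval of 0.39 to 1.55, and 3.88% of all tested genes had a larger one. It missed the threshold (limma adjusted p = 0.085). It passed without replicate 5 (1.22, adjusted p = 0.0304), where 3.54% of all tested genes were called higher and 0.386% lower. It also passed without replicate 6 (0.70, adjusted p = 0.0444 on the same 11857 genes), where 8.11% of all tested genes were called higher and 0.961% lower. Without each of the other 4 replicates it did not pass. After median-of-ratios scaling the difference was 0.69.

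Bmp4 (chromosome 14, 46383520 to 46390669, minus strand), a mesenchymal ligand and in gut development a target of Hedgehog, was at 12.63, 8.05 and 11.23 FPKM in PGC;Ras;APC FF and at 7.46, 7.73 and 6.79 FPKM in controls. Replicate 5 lay close to the controls, and replicates 4 and 6 stood clear of them. The log2 difference was 0.46 ± 0.17 (SE, limma adjusted p = 0.113). The ratio of Bmp4 to Pdgfra was 1.47, 1.49 and 1.23 in mice with PGC and 1.54, 1.52 and 1.64 in controls, lower in every library with PGC. Lum, another fibroblast gene, averaged 12.6 ± 2.9 FPKM in mice with PGC and 14.7 ± 1.2 FPKM in controls (SD, n = 3 each). The direction of such a ratio thus depends on the fibroblast gene chosen. Bmp2 (chromosome 2, 133552159 to 133562885, plus strand), a close relative of Bmp4 and the most abundant of the ligands in controls, was at 20.31, 21.11 and 18.74 FPKM in mice with PGC and at 20.51, 23.89 and 20.85 FPKM in controls. Its groups overlapped, with a log2 difference of -0.11 and a 95% interval of -0.40 to 0.18 (limma adjusted p = 0.521). This lay 0.37 below the overall median (a difference of -0.37). After median-of-ratios scaling, with the overall median at -0.0027, the difference was -0.41 and the groups did not overlap: Bmp2 was at 19.4, 20.7 and 14.3 scaled FPKM in mice with PGC and at 23.6, 25.9 and 22.8 in controls.

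The make-up of these 3 ligands, which no scaling of a library can alter, is given as a description with no test. Bmp7 made up 25.6%, 21.2% and 36.5% of their summed FPKM in PGC;Ras;APC FF and 17.5%, 15.2% and 14.6% in controls. Bmp2 made up 45.9%, 57.1% and 39.7% in mice with PGC and 60.5%, 64.1% and 64.4% in controls. Both separated the groups, while the share of Bmp4 overlapped (24.7% ± 3.5 in mice with PGC and 21.2% ± 0.67 in controls, SD, n = 3 each). The ratio of Bmp7 to Epcam, an epithelial adhesion gene, was 0.109, 0.0701 and 0.0586 in mice with PGC and 0.0867, 0.0850 and 0.102 in controls, and the groups overlapped. The part of epithelial content in the level of Bmp7 was not tested.

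**Figure D3:**
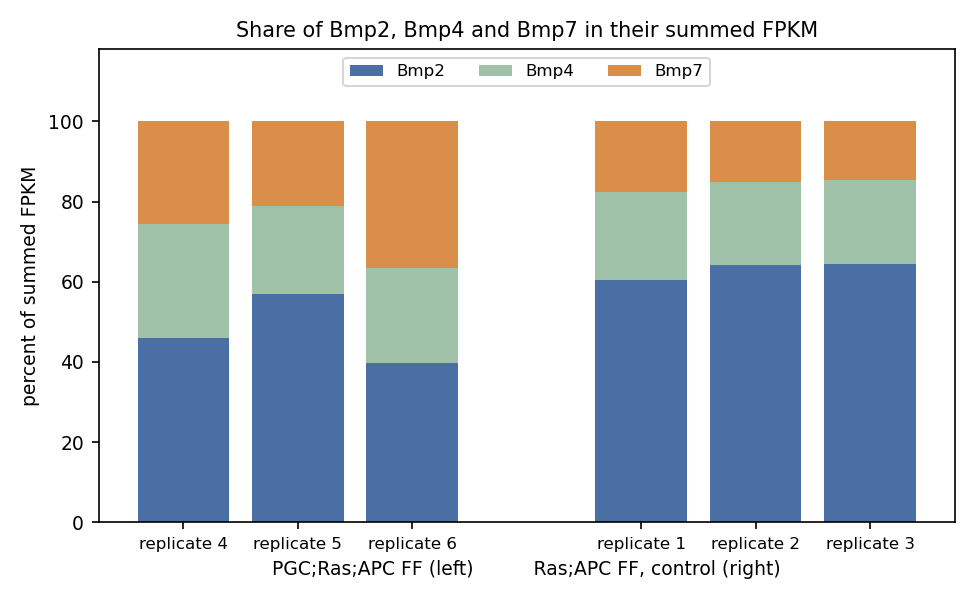
Share (percent) of Bmp2, Bmp4 and Bmp7 in their summed FPKM, 1 bar per mouse, PGC;Ras;APC FF at the left and Ras;APC FF controls at the right. The Bmp7 part is larger in each library with PGC (21.2% to 36.5%) than in any control (14.6% to 17.5%).

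Of 6 tested BMP ligands 0 passed limma. At an unadjusted limma p under 0.05, 2 were higher (Bmp4 and Bmp7) and 1 lower (Bmp3), beside 31.8% and 3.63% of all tested genes. Bmp5 and Bmp6 are close relatives of Bmp7. Bmp5 averaged 5.05 ± 1.15 FPKM in PGC;Ras;APC FF and 3.60 ± 0.078 in controls, and Bmp6 averaged 3.20 ± 0.63 in mice with PGC and 2.69 ± 0.075 in controls (SD, n = 3 each). Bmp3, an atypical member that opposes the others, was at 0.98, 0.59 and 0.46 FPKM in mice with PGC and at 1.17, 1.11 and 1.15 FPKM in controls. It passed the filter only through the controls, which forces a difference. Bmp8b, under the filter, was at 0.27, 0.38 and 0.34 FPKM in mice with PGC and at 0.02, 0.05 and 0.05 FPKM in controls. Bmp3 and Bmp8b were picked out after their values were seen.

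Of the receptors 0 of 9 tested genes passed limma and of the SMADs 0 of 4, with median log2 differences of 0.051 and 0.20. At an unadjusted limma p under 0.05 there were 0 receptors higher and 1 lower (Rgmb), and 1 SMAD higher (Smad5) and 0 lower. Of all tested genes 31.8% were higher and 3.63% lower at that p. The type I receptor Bmpr1a averaged 19.1 ± 0.82 FPKM in PGC;Ras;APC FF and 17.2 ± 1.24 in controls, and endoglin (Eng), a co-receptor of endothelium, averaged 16.97 ± 3.69 in mice with PGC and 13.96 ± 1.10 in controls. Smad1 and Smad4 averaged 13.3 ± 3.94 and 12.4 ± 2.55 FPKM in mice with PGC and 10.98 ± 0.96 and 10.7 ± 1.10 in controls, each with replicate 6 the highest library. Within these lists some genes, picked out after their values were seen, ran the other way. Bmpr1b, another type I receptor, was at 3.16, 2.47 and 1.00 FPKM in mice with PGC and at 3.46, 3.50 and 3.64 FPKM in controls. Smad9 was at 2.22, 2.20 and 0.61 FPKM in mice with PGC and at 2.46, 2.94 and 3.39 FPKM in controls, while its relative Smad5 was at 5.56, 4.48 and 8.52 FPKM in mice with PGC against 3.68, 4.12 and 4.22 FPKM in controls. Replicate 6 was the extreme library for all 3. The co-receptor Rgmb was at 8.35, 7.32 and 9.90 FPKM in mice with PGC and at 10.80, 11.04 and 12.00 FPKM in controls. Its log2 difference was -0.37 (limma adjusted p = 0.115). Rgmb passed without replicate 6 (-0.48, limma adjusted p = 0.0419), where 8.11% of all tested genes were called higher and 0.961% lower. With any other replicate left out it did not pass.

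Grem1 (chromosome 2, 113746164 to 113758646, minus strand), the antagonist of Bmp2, Bmp4 and Bmp7, was the most scattered member. It was at 3.00, 1.07 and 5.85 FPKM in PGC;Ras;APC FF and at 4.39, 3.95 and 3.25 FPKM in controls, so that both the lowest and the highest library were from mice with PGC. The log2 difference of -0.33 had a 95% interval of -1.22 to 0.56 (limma adjusted p = 0.526). It was -0.75 without replicate 6 and 0.11 without replicate 5. Relative to Bmp4, Grem1 was at 0.238, 0.133 and 0.521 in mice with PGC and at 0.589, 0.511 and 0.479 in controls, overlapping through replicate 6. Smooth muscle, a known site of Grem1, was represented by 7 genes that summed to 1526, 1341 and 1046 FPKM in replicates 4 to 6 and to 2305 to 4112 FPKM in controls. Of these, 7 of 7 were separated downward, beside 5.47% of all tested genes. In replicate 6 the 7 smooth muscle genes were lowest and Grem1 highest. Their part in Grem1 was not tested.

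Of the 9 tested antagonists, Grem1 included, 0 passed limma, with a median log2 difference of -0.18. At an unadjusted limma p under 0.05, 0 were higher and 1 lower (Chrdl1), beside 31.8% and 3.63% of all tested genes. Twsg1, which can both help and hinder BMP ligands, averaged 34.3 ± 3.87 FPKM in PGC;Ras;APC FF and 27.5 ± 3.67 in controls, and Nbl1 averaged 26.9 ± 11.7 in mice with PGC and 23.4 ± 5.14 in controls. Chrdl1, a chordin-like antagonist picked out after its values were seen, was at 3.00, 1.74 and 2.94 FPKM in mice with PGC and at 4.71, 5.39 and 6.12 FPKM in controls. The groups were well apart, with a log2 difference of -0.86 ± 0.18 (SE, limma adjusted p = 0.085) and -1.11 after median-of-ratios scaling. Chrdl1 passed without replicate 6 (-0.95, limma adjusted p = 0.0313), where 8.11% of all tested genes were called higher and 0.961% lower. With any other replicate left out it did not pass. Sostdc1 was at 15.96, 16.20 and 1.97 FPKM in mice with PGC and at 17.87, 13.91 and 8.11 FPKM in controls, low in replicate 6. Fst (follistatin), under the filter, was at 1.62, 0.69 and 4.22 FPKM in mice with PGC and at 0.38, 0.30 and 0.69 FPKM in controls. Sostdc1 and Fst were also picked out after their values were seen.

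Among BMP targets the Id genes were abundant and overlapped between genotypes, while the homeobox genes Msx1 and Msx2 were low and did not overlap. Id1 (chromosome 2, 152736251 to 152737410, plus strand), an inhibitor of bHLH factors and a direct target, was the most abundant member at 137.5, 190.7 and 166.8 FPKM in PGC;Ras;APC FF and 103.9, 116.1 and 143.0 FPKM in controls. Replicate 4 lay below control replicate 3, so the groups overlapped. The log2 difference was 0.44 ± 0.19 (SE, limma adjusted p = 0.136) and 0.14 after median-of-ratios scaling. Id2 averaged 62.5 ± 14.3 FPKM in mice with PGC and 64.7 ± 20.3 in controls, and Id3 averaged 122.4 ± 3.12 in mice with PGC and 103.7 ± 27.5 in controls (SD, n = 3 each). Of 8 tested targets 0 passed limma, and the median was 0.25. At an unadjusted limma p under 0.05, 2 were higher (Id1 and Msx1) and 0 lower, beside 31.8% and 3.63% of all tested genes. Of these 2, Msx1 passed the filter only through the libraries with PGC.

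Msx1 and Msx2, homeobox genes induced by BMP in many tissues, and Bambi, a decoy receptor, were picked out after their values were seen. Msx1 was at 6.68, 1.73 and 6.14 FPKM in PGC;Ras;APC FF and at 0.34, 0.30 and 0.58 FPKM in controls. Msx2 was at 2.43, 0.68 and 1.92 FPKM in mice with PGC and at 0.18, 0.12 and 0.08 FPKM in controls. Bambi was at 0.78, 0.46 and 1.60 FPKM in mice with PGC and at 0.29, 0.27 and 0.31 FPKM in controls. All 3 separated the groups upward, as 42.7% of all tested genes did, with replicate 5 the lowest library with PGC for each. Msx1 had a log2 difference of 1.92 ± 0.37 (SE, limma adjusted p = 0.085), but it passed the filter only through the libraries with PGC and so had to differ. Without replicate 6 it was 1.71 (limma adjusted p = 0.0401 on the same 11857 genes). The filter over all 6 libraries kept Msx1 there by the same route, so that p cannot count as evidence of a difference. Msx2 and Bambi were not tested. Replicate 5 was also the lowest for Wnt target genes, a list whose 8 genes summed to 177.7, 68.96 and 439.1 FPKM in replicates 4 to 6 and to 16.87 to 18.68 FPKM in controls. The part of Wnt targets in the Msx levels was not tested.

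**Figure D4:**
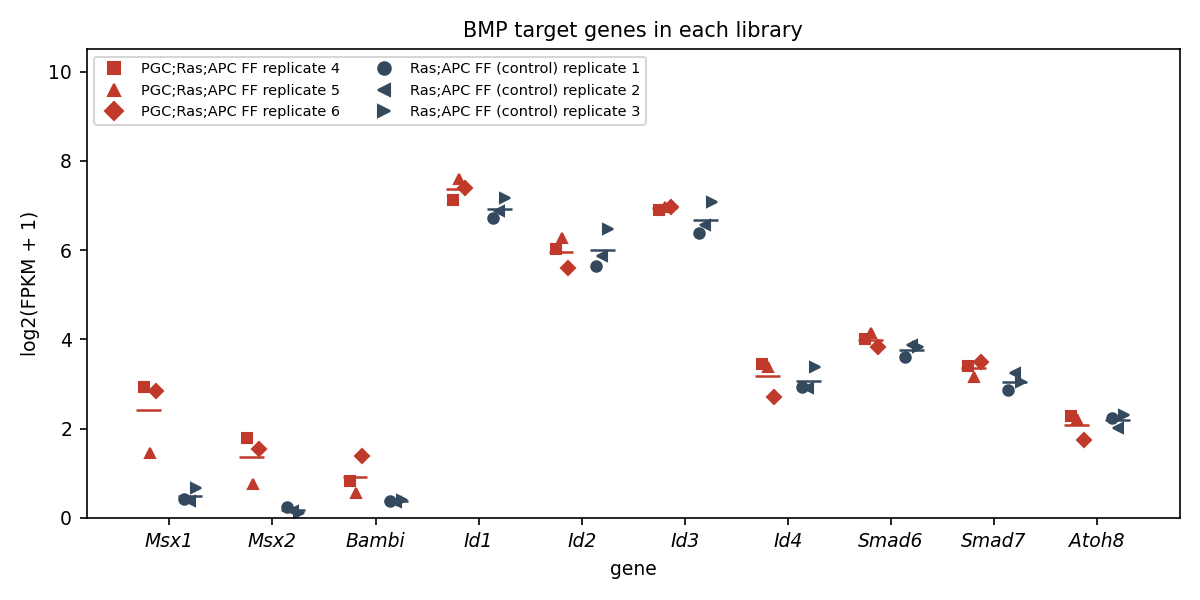
Log2(FPKM + 1) of 10 BMP target genes in each library, PGC;Ras;APC FF (red) left of Ras;APC FF controls (dark), with lines at group means. Msx1, Msx2 and Bambi stand apart by group at low levels, while the Id genes, Smad6, Smad7 and Atoh8 overlap.

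Ordered by level per length, PGC;Ras;APC FF libraries ran Id1, Ihh, Bmp2, Shh, Bmp7, Bmp4, Ptch1, Grem1, Hhip and Gli1, with means of 165, 26.0, 20.1, 18.4, 12.1, 10.6, 4.46, 3.31, 1.52 and 0.833 FPKM. Neighbours did not overlap between Id1 and Ihh, Ihh and Bmp2, and Bmp4 and Ptch1, and overlapped elsewhere. Controls ran Id1, Bmp2, Ihh, Shh, Bmp4, Bmp7, Grem1, Ptch1, Hhip and Gli1, with means of 121, 21.8, 18.2, 15.3, 7.33, 5.44, 3.86, 3.80, 1.22 and 0.877 FPKM. There neighbours overlapped between Bmp2 and Ihh, Ihh and Shh, Grem1 and Ptch1, and Hhip and Gli1, and Bmp4 lay above Bmp7 in every control.

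For members whose log2 values spanned at least 1 over the 6 libraries (Bmp7 and Grem1), the tested genes with the nearest centred profile were sought. For Bmp7 they were Chst11 and Lhpp, with root mean square differences of 0.072 and 0.074 on the log2 scale per library. Chst11, a chondroitin sulfotransferase, was at 3.12, 1.65 and 5.45 FPKM in PGC;Ras;APC FF and at 1.31, 1.15 and 0.89 FPKM in controls. For Grem1 they were Gbp3 and Cyp1b1, with differences of 0.23 and 0.26, so no gene followed Grem1 as closely. Gbp3, an interferon-inducible GTPase, was at 2.40, 1.88 and 6.24 FPKM in mice with PGC and at 4.26, 3.60 and 3.96 FPKM in controls.

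**Figure D5:**
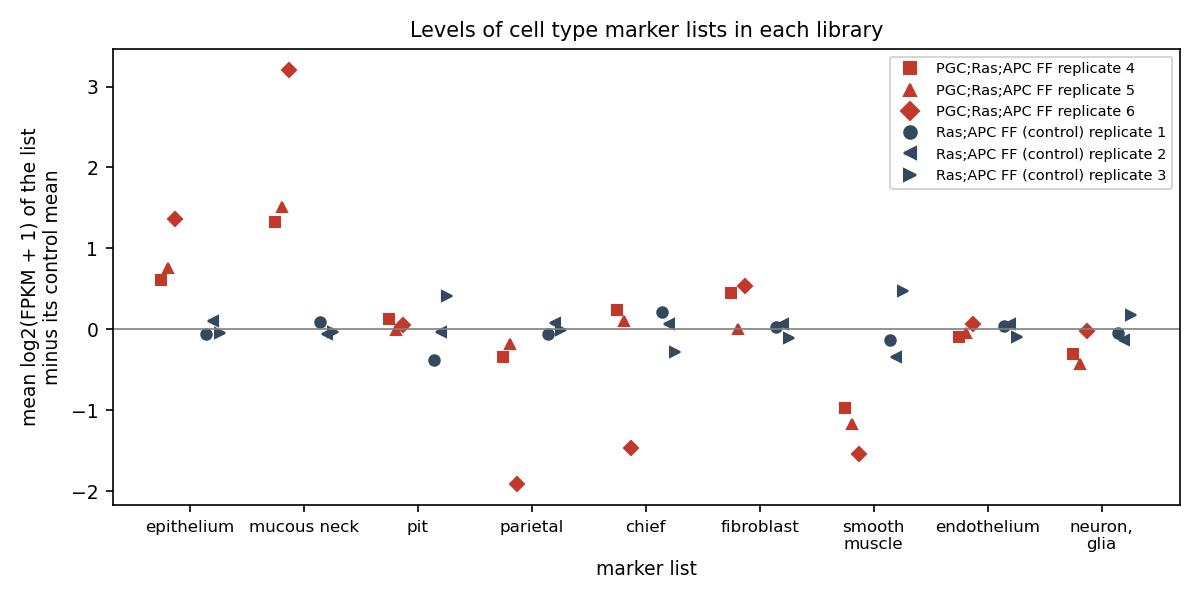
Mean log2(FPKM + 1) of each cell type marker list minus its mean over controls, per library, PGC;Ras;APC FF (red) left of Ras;APC FF controls (dark). General epithelial and mucous neck lists lie above the controls and smooth muscle below them in all 3 libraries with PGC, and the parietal list lies below them at -0.34, -0.18 and -1.92.

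Of all 77 pathway genes 52 were tested, 0 passed limma with all 6 libraries, and 8 were higher and 3 lower at an unadjusted p under 0.05, beside 31.8% and 3.63% of all genes. The groups were separated upward for 10 of the 52 (19.2%) and downward for 6 (11.5%), beside 42.7% and 5.47% of all tested genes. Msx1 is among the 8 and the 10, and Bmp3 among the 3 and the 6. Each passed the filter only through 1 group, which forces a difference. The median log2 change of the 52 was 0.12, and -0.14 after median-of-ratios scaling. The 4 endothelial genes summed to 29.5 to 33.7 FPKM in PGC;Ras;APC FF and 28.9 to 33.5 FPKM in controls. Of the lists not plotted, 4 adipocyte genes had mean log2 levels relative to the control mean of -1.48, -1.51 and -1.73 in mice with PGC. Their levels in controls were -0.15 to 0.25. Adipoq and Cfd among them passed the threshold (lower). Adipoq, however, passed the filter only through the controls, which forces a difference. The 4 squamous genes, mostly through Krt13, were at 0.51, 0.46 and 0.62 in mice with PGC and -0.058 to 0.099 in controls. The part of these cells in the pathway genes was not tested.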

How the data were processed

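Total RNA from the stomach corpus of 6 mice was extracted and sequenced, 1 library per mouse. Per the submitters' processing notes, STAR and featureCounts on mm10 were used. The sources used here give no versions, annotation, strand setting or route to FPKM. The deposited FPKM were computed by the authors and rounded to 2 decimals.

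FPKM are not counts, so no count model was run. Rows with at least 1 FPKM in at least 3 of 6 libraries (11857) were fitted as log2(FPKM + 1) by limma 3.58.1 under R 4.3.3 (trended eBayes, two-sided, genotype as its 1 term, 4 residual degrees of freedom) and Benjamini-Hochberg adjustment over all of them at 0.05. Because 1 is added before the log2, low genes change less on this scale than in FPKM. SDs and tests measure the spread between mice. The exact permutation test of a single value with 3 against 3 mice cannot go below 0.1. No interval for counting error is given, since depth is unknown.

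Members and lists were chosen with earlier results of these data known. Besides the 10 members, each pathway list gave its 2 most abundant tested genes where fewer than 2 had passed, and genes outside this rule are marked where they are named. The values of 1 listed antagonist are not reported here, though counts and medians of its list include it. Coordinates come from GENCODE M21 (GRCm38, the assembly of mm10), matched by symbol. Alternatives were another pseudocount (0.1), 2 other filters, 2 scalings, leaving out each replicate, and array weights.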

Additional observations from a re-analysis of the deposited data

How the results depend on the processing

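The absence of member calls held under pseudocount 0.1, no filter, a mean FPKM of at least 1 and both scalings. The count was 0 to 1 when replicates were left out in turn (Bmp7 without replicate 5 or 6), 1 without replicate 6 with the filter over all 6 libraries (Bmp7), and 3 with array weights (Ihh, Bmp4 and Bmp7). Over the 77 pathway genes it was 0 to 3, 4 and 11 in the same settings. Msx1, which passed the filter only through the libraries with PGC, is among the 4 and the 11. The array-weight fit gave replicate 6 a weight of 0.133 and stopped before its tolerance was reached. Calls over all genes moved as well, and the member counts are to be read beside these. With array weights, 3 of 9 tested members stood beside 3523 higher and 369 lower genes of 11857. Ihh was then only just under the threshold (limma adjusted p = 0.0499998). Higher genes numbered 13, against 29 with pseudocount 0.1, 3 without a filter, 0 to 832 when replicates were left out in turn, 962 without replicate 6 with the filter over all 6 libraries and 3523 with array weights. Lower genes numbered 5, against 10 with either scaling and 0 to 106, 114 and 369 in those last 3 settings. The split of calls was thus 13 higher and 5 lower unscaled, 9 and 10 under median-of-ratios scaling, and 12 and 10 after scaling to the total without the 50 most abundant genes. Leaving out any 1 control gave 0 calls by limma, with 2270 to 3056 genes at an unadjusted p under 0.05. Members with every PGC;Ras;APC FF library above every control numbered 4, against 1 under either scaling and 4 to 5 when replicates were left out. The cause of these differences was not tested.

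No named gene that changed direction was called in any setting where it did so. With median-of-ratios scaling the log2 change became -0.034 for Shh, -0.061 for Ptch1, -0.036 for Smo, -0.20 for Spop, -0.27 for Foxf1, -0.049 for Bmp6, -0.16 for Bmpr1a, -0.046 for Eng, -0.064 for Smad1, -0.11 for Smad4, -0.17 for Nbl1 and -0.039 for Id3. Scaling to the total without the 50 most abundant genes gave -0.088, -0.11, -0.087, -0.26, -0.32, -0.092, -0.21, -0.10, -0.12, -0.17, -0.23 and -0.096 for the same genes, -0.026 for Hhip and -0.044 for Twsg1. Array weights gave 0.088 for Foxf2, 0.20 for Id2 and 0.071 for Sostdc1. Without replicate 6 with the filter over all 6 libraries, Id2 was at 0.15, Nbl1 at -0.19 and Sostdc1 at 0.32. With replicates left out in turn, Hhip ranged from -0.019 to 0.42, Grem1 from -0.75 to 0.11, Foxf1 from -0.076 to 0.050, Nbl1 from -0.19 to 0.43, Id2 from -0.20 to 0.21 and Sostdc1 from -0.95 to 0.32. No paired analysis was possible because the groups share no replicate numbers. Alternatives for the pathway-wide count and for the separated members were added after seeing the data.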
